A study of Homo sapiens with 9 samples.

Results

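The response of A375 cells to 40 mM metformin was described across all 12394 of 37118 listed genes whose mean level over the 9 libraries of the study was at least 1 FPKM (fragments per kilobase of transcript, scaled to the sequencing depth of the library). A375 is an established line of human melanoma cells with an activated BRAF kinase, and the labels give its genotype as WT. The groups compared were A375 without metformin (0 mM) and A375 given 40 mM metformin, with 3 libraries each, so that 6 of the 9 libraries entered the comparison; the 3 libraries at 20 mM were used for the estimate of the spread and for a second comparison of 40 mM with 20 mM. All libraries came from 1 cell line, and the labels used here do not give the treatment time. No label says whether the 3 libraries of a dose were separate cultures, so p-values measure only the spread between them, which may be technical. The doses lie far above those reached in blood under treatment with the drug.

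Metformin, a biguanide, is a drug that lowers blood glucose in diabetes. It accumulates in mitochondria and inhibits complex I of the respiratory chain, which lowers ATP production and can activate the energy sensor AMPK. Mitochondrial impairment and amino acid shortage are both known to act through kinases that phosphorylate the initiation factor eIF2, which slows general translation while favouring translation of the transcription factor ATF4; this route is called the integrated stress response. Ferroptosis, which the study's title names, is an iron-dependent form of cell death driven by lipid peroxides.

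Library totals were 74816762 to 75400950 counts at 0 mM, 71989352 to 74274409 at 20 mM and 65738242 to 75629413 at 40 mM, where the lowest was replicate 3. That library stood apart from the other 8: it received a weight of 0.246 in limma's estimate of library quality, against 0.81 to 1.99 for the others, and mitochondrially encoded transcripts made up 4.36% of its counts, against 3.01% and 3.27% in the other libraries at 40 mM. The counts over all genes, and many of the results for lists and single genes, are therefore also given without it. The label was checked against markers of the melanocyte lineage and against VIM, which is not particular to that lineage. SOX10, MITF, PAX3, S100B and VIM were above 1 FPKM in every library, while MLANA, PMEL, TYR, DCT and TFAP2A lay under 1 FPKM in all 9. Of 18 markers of other cell types, 6 passed the level minimum. Their summed level over all 18 was 38.3 to 41.0 FPKM at 0 mM and 59.6 to 65.3 FPKM at 40 mM. Keratinocyte markers held 23.0 to 26.6 and 30.7 to 32.5 FPKM of it, chiefly KRT10 (means 17.9 and 22.7) and KRT14 (7.33 and 8.64). Of the leukocyte markers, PTPRC and CD3E were at 0 or near it in every library. LYZ, another of them, averaged 3.29 FPKM at 0 mM and 4.34 FPKM at 40 mM. Of the 6 tested markers 4 rose and 1 fell: CD68 is given with the lysosomal genes, LUM, a matrix proteoglycan, rose by 0.89 ± 0.12, and KDR, a receptor of VEGF, fell by 1.51 ± 0.13. In bulk RNA fewer cells of a type and less RNA per cell cannot be told apart, and the part of such markers in the results was not tested.

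By edgeR's quasi-likelihood test 6962 of the 12394 genes (56.2%) differed between 40 and 0 mM at an adjusted p under 0.05, which is the rule for a call throughout. Of these 3571 rose (28.8% of the genes tested) and 3391 fell (27.4%). Counts of list members given below for 40 against 0 mM are to be read beside these shares. Most changes were small. The median change over all tested genes was -0.00 on the log2 scale, 90% of genes lay between -0.66 and 0.74, and the median size of a called change was 0.38. A change of at least 2-fold was called for 273 genes that rose (2.2%) and 184 that fell (1.48%). Tested against a fold of 1.2 instead of no change, with edgeR's glmTreat, 1644 genes rose (13.3%) and 1433 fell (11.6%). The 3 libraries of each group did not overlap in FPKM for 4258 genes that were higher at 40 mM (34.4%) and 3317 that were lower (26.8%).

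Without replicate 3 of 40 mM, 7135 genes were called (57.6%), 3631 up (29.3%) and 3504 down (28.3%), of which 273 (2.2%) and 206 (1.66%) by at least 2-fold. Of the 6962 genes, 6464 were called in the same direction in both fits, 0 in opposite directions, and 498 were no longer called, while 671 others became called. Of the 457 genes with a called change of at least 2-fold, 452 were still called and 407 were still changed by at least 2-fold. The number of calls ran from 6049 to 7135 when any 1 of the 6 libraries was left out.

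**Figure D1:**
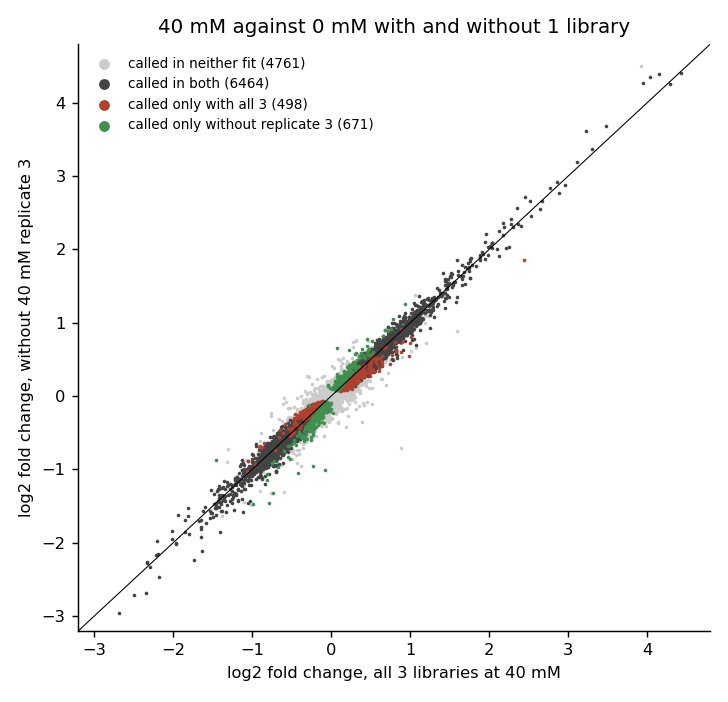
Log2 fold change of each tested gene at 40 mM against 0 mM, with all 3 libraries at 40 mM on the horizontal axis and without replicate 3 of 40 mM on the vertical axis; the line marks equal values. The genes called in both fits (6464) lie along the line, and those called in 1 fit (498 and 671) lie mostly near 0.

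All tested genes of the ATF4 and amino acid response rose. Of 38 listed genes 37 were tested, and all 37 rose, with a median of 1.06 against -0.00 over all tested genes. Without replicate 3 of 40 mM all 37 rose too, with a median of 1.06. The list was chosen with earlier results of these data known, so this count is not independent of them. NUPR1 and ADM2 were under 1 FPKM in all untreated libraries and passed the level minimum only through treated ones.

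The strongest member was NUPR1, a small chromatin-associated stress protein (ENSG00000176046, chromosome 16, 28532708 to 28538974, minus strand; gene positions are copied from the deposited table, and the genome build behind it is unknown here). It was at 0.21, 0.226 and 0.337 FPKM in the 3 untreated libraries and at 5.17, 5.02 and 5.41 FPKM at 40 mM. The groups lay far apart, and the log2 fold change ± SE was 4.29 ± 0.14 (adjusted p = 1.9e-08; 4.26 without replicate 3 of 40 mM). ADM2, a peptide hormone gene, went from 0.552, 0.557 and 0.581 to 4.29, 4.22 and 4.93 FPKM (2.95 ± 0.10, adjusted p = 1.9e-08). GDF15, a stress cytokine of the TGF-beta family that acts on appetite, was at 3.15, 2.06 and 1.72 FPKM without and 17.7, 14.8 and 19.8 FPKM with the drug (2.88 ± 0.20). Both genes had no overlap between the groups.

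DDIT3 encodes CHOP, a transcription factor of the late stress response. Its 3 libraries at 0 mM held 9.49, 8.42 and 8.28 FPKM and those at 40 mM 58.2, 70.0 and 55 FPKM (2.77 ± 0.12, adjusted p = 5.3e-08). The gene overlaps MARS1 and MBD6 on the opposite strand, and the use of strand in counting is unknown here, so part of its level is uncertain. CHAC1, an enzyme that degrades glutathione (ENSG00000128965, chromosome 15, 40952962 to 40956512, plus strand), went from 4.44, 4.59 and 5.08 to 23.2, 21 and 21.1 FPKM (2.18 ± 0.08, adjusted p = 2.1e-08). ATF3, a stress-induced factor of the ATF family (ENSG00000162772, chromosome 1, 212565334 to 212620772, plus strand), went from 1.52, 1.65 and 1.05 to 7.98, 6.83 and 4.72 FPKM (2.17 ± 0.20), with replicate 3 the lowest of the treated libraries. ATF4 itself, which is controlled chiefly at translation, rose by 0.40 ± 0.04, from 114, 123 and 123 to 157, 159 and 169.7 FPKM. PPP1R15A, the phosphatase subunit that removes the phosphate from eIF2, was at 33.2, 32.3 and 31.1 FPKM untreated and at 83.6, 76.3 and 80.9 FPKM treated (1.28 ± 0.05); it was chosen after its values were seen.

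The promoter windows of CHAC1 and ATF3 are shown because these genes had the largest rises among list members whose windows hold the composite element bound by ATF4 with its partners, searched for as TGATGNAA on either strand. Windows run from 250 bases before to 50 after the start site of the RefSeq gene in GRCh38.p14, and of the 2 windows of ATF3 the first that holds a match is shown. Capitals mark the match. The CHAC1 window is chr15:40953221-40953520, plus strand, and that of ATF3 is chr1:212565157-212565456, plus strand.
CHAC1: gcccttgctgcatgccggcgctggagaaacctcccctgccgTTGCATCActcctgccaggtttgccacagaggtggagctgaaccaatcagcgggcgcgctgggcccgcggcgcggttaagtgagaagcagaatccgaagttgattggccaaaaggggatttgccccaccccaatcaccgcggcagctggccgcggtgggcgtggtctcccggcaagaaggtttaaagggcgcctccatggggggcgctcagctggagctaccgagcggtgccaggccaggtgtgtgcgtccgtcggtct
ATF3: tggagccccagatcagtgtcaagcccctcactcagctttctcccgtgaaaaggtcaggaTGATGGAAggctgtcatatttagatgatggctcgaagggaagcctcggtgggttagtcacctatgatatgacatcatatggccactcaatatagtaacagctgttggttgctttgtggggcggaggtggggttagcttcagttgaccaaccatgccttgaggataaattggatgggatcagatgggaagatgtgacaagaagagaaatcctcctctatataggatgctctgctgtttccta
In CHAC1 the match begins at base 42 of the window and reads TTGCATCA, the reverse strand of the motif; in ATF3 it begins at base 60 and reads TGATGGAA. Of 37 tested list members 28 had a window, and 7 of these held the motif: SLC3A2, HERPUD1, CEBPG, ASNS, JDP2, ATF3 and CHAC1. Of the 8887 tested genes with a window 2.59% held it, and of all 35116 windows 3.62%. A match is a description of these letters and not a measured site.

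Enzymes that charge tRNAs with amino acids split by gene. Of 20 cytosolic tRNA synthetases 11 rose and 8 fell, with the same counts without replicate 3 of 40 mM. WARS1, for tryptophan, rose from 30.6, 32.8 and 34.9 to 55.7, 62.8 and 68.6 FPKM (0.90 ± 0.08). GARS1, for glycine, rose by 0.85 ± 0.05 and AARS1, for alanine, by 0.74 ± 0.04. Among those that fell were RARS1 (-0.44 ± 0.05) and VARS1 (-0.44 ± 0.05), for arginine and valine, named after their values were seen. Against 20 mM no synthetase was higher at 40 mM and 14 of 20 were lower; over all tested genes 14.3% were higher and 15.1% lower in that comparison.

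Amino acid carriers moved in both directions. Of 24 carriers 19 were tested, of which 12 rose and 3 fell. SLC6A9, the glycine importer GlyT1, went from 3.24, 3.67 and 3.59 FPKM to 13.9, 13.4 and 15.1 FPKM (1.98 ± 0.06, adjusted p = 1.9e-08). SLC7A11, the cystine importer of system xc-, went from 12.4, 12.3 and 13 to 27.3, 26.1 and 24.7 FPKM (1.01 ± 0.05), and at 40 mM it was below its level of 27.1, 29.8 and 28.9 FPKM at 20 mM (40 against 20 mM: -0.17 ± 0.05, adjusted p = 0.027). SLC1A1, a glutamate and aspartate importer that also carries cysteine (ENSG00000106688, chromosome 9, 4490468 to 4587469, plus strand), moved the other way, from 7.73, 8.08 and 8.09 to 1.96, 1.71 and 1.67 FPKM (-2.19 ± 0.07, adjusted p = 1.9e-08; -2.15 without replicate 3 of 40 mM). SLC7A2, a carrier of arginine and other cationic amino acids, fell by 1.2 ± 0.14.

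Genes of serine and folate metabolism moved in both directions. Of 17 tested genes 7 rose and 8 fell. ALDH1L2, a mitochondrial folate enzyme, rose from 1.94, 1.97 and 2.25 to 5.62, 5.57 and 5.88 FPKM (1.43 ± 0.06), and PSPH, the last enzyme of serine synthesis, rose by 1.17 ± 0.06. TYMS, which makes thymidylate, was at 105, 101 and 101 FPKM at 0 mM and at 52.4, 51.7 and 44.1 FPKM at 40 mM (-1.08 ± 0.06, adjusted p = 2.8e-07). TYMS overlaps ENOSF1 on the opposite strand. At 40 against 20 mM 12 of the 17 were lower and 0 higher.

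Genes of DNA replication fell together. Of 45 genes for origins and forks, all of them tested, 37 fell and 2 rose, with a median of -0.43. Without replicate 3 of 40 mM 37 fell and 4 rose, and without any other library 1 or 2 rose. Compared with 20 mM, 29 of 45 were lower at 40 mM and 0 were higher. LIG1, the ligase that joins Okazaki fragments (ENSG00000105486, chromosome 19, 48115445 to 48170344, minus strand), was at 7.75, 7.37 and 6.89 FPKM in untreated libraries and at 2.84, 2.98 and 3.03 FPKM at 40 mM (-1.34 ± 0.06, adjusted p = 5.3e-08). Its level at 20 mM, 4.43, 4.54 and 4.53 FPKM, lay between the groups without overlap. POLA2, a subunit of the DNA polymerase alpha-primase complex, fell from 6.81, 6.41 and 6.59 to 3.58, 3.97 and 2.79 FPKM (-0.97 ± 0.18), and GINS2, of the replicative helicase, fell by 0.88 ± 0.06.

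All 6 subunits of the MCM helicase ring fell, by 0.39 to 0.86 on the log2 scale, a group chosen after its values were seen. MCM5 had the largest fall, from 13.5, 12.8 and 13 to 7.18, 7.65 and 7.23 FPKM (-0.86 ± 0.04), and MCM4 the smallest (-0.39 ± 0.04). PCNA, the sliding clamp of the polymerases, was at 158, 159.5 and 151 FPKM untreated and at 107, 107 and 82.2 FPKM treated, with replicate 3 the lowest (-0.69 ± 0.08; -0.58 without that library). The 2 genes that rose were DBF4 (0.20 ± 0.05) and ORC6 (0.23 ± 0.08, adjusted p = 0.027), and ORC6 lost its call without replicate 2 or 3 of 0 mM or replicate 1 or 2 of 40 mM (adjusted p up to 0.1).

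Windows of LIG1 and POLA2 are shown because they had the largest falls among the list members whose windows hold an E2F site, searched for as TTNGCGC on either strand. E2F factors drive genes of the S phase of the cell cycle. The LIG1 window is chr19:48170295-48170594, minus strand, and that of POLA2 is chr11:65261712-65262011, plus strand; capitals mark the matches.
LIG1: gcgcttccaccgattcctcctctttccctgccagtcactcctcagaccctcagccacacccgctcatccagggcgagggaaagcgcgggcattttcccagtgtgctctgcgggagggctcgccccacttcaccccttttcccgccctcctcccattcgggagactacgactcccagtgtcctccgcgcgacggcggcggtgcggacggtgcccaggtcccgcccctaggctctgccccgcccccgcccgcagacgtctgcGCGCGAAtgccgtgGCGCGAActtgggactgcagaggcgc
POLA2: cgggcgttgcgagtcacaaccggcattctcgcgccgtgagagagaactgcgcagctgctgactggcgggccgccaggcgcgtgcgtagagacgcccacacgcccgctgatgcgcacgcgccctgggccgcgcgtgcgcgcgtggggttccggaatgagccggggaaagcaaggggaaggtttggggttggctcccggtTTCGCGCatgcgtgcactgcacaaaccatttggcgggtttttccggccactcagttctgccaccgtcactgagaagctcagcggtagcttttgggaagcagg
LIG1 holds 2 matches, both reading GCGCGAA, and POLA2 holds 1, reading TTCGCGC. The motif was present in 23 of 38 members with a window, 20 of which fell and 2 rose, in 16.1% of the tested genes with a window and in 7.81% of all windows.

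Other genes of the cell cycle moved less uniformly. Of 25 tested regulators of the step from G1 to S phase 14 fell and 6 rose. CDKN1C, an inhibitor of cyclin-dependent kinases, fell from 2.75, 2.9 and 3 to 0.657, 0.804 and 0.765 FPKM (-1.97 ± 0.15). E2F8 fell by 1.25 ± 0.11 and E2F2 by 1.16 ± 0.12, while E2F7, a repressor of the same family chosen after its value was seen, rose by 0.67 ± 0.05. CDKN1A, which encodes the inhibitor p21, was at 34.6, 33.2 and 30.8 FPKM at 0 mM and 35.8, 31.1 and 30.5 FPKM at 40 mM and was not called (-0.05 ± 0.08, adjusted p = 0.61). Cyclin D1, CCND1, was called at 0.19 ± 0.07 (adjusted p = 0.031), but not with the 6 libraries alone or without replicate 2 or 3 of 0 mM or replicate 1 or 2 of 40 mM (adjusted p up to 0.12).

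Of 46 mitosis genes 29 fell and 4 rose, with a median of -0.26 (-0.23 without replicate 3 of 40 mM, when 31 fell and 3 rose). Leaving out replicate 3 of 0 mM left 1 that rose, and leaving out replicate 1 or 2 of 0 mM or replicate 2 of 40 mM left 2. PRC1, which bundles microtubules at the spindle midzone (ENSG00000198901, chromosome 15, 90966040 to 90994602, minus strand), went from 29, 29.4 and 30.7 to 14.5, 16.1 and 13.1 FPKM (-1.06 ± 0.07, adjusted p = 1e-06). ESPL1, the protease separase, went from 13.1, 13 and 12.1 to 7.24, 6.89 and 7.27 FPKM (-0.87 ± 0.05), and the centromere protein gene CENPM fell by 0.66 ± 0.10. MKI67, the proliferation marker, fell by 0.37 ± 0.06; it was chosen after its values were seen. At 40 against 20 mM 27 of the 46 fell and 0 rose.

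The PRC1 window, chr15:90994486-90994785, minus strand, is shown as the list's largest fall with a CHR element, a motif of genes that peak in mitosis, searched for as TTTGAA on either strand and marked in capitals.
PRC1: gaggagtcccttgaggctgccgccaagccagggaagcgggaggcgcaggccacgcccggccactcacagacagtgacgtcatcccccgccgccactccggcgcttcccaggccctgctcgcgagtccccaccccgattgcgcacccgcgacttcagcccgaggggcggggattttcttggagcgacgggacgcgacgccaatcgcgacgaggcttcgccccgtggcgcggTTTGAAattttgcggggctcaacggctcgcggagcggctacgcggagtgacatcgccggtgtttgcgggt
It reads TTTGAA at base 231, which is 20 bases before the start site. The element was found in 27 of 38 members with a window, in 13.3% of the tested genes with one and in 15.2% of all windows.

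DNA repair and nucleotide synthesis followed the same direction. Of 29 genes of recombination and of the Fanconi pathway, which repairs crosslinked DNA, 19 fell and 1 rose, with the same counts without replicate 3 of 40 mM. FANCE fell from 3.48, 3.82 and 3.25 to 1.46, 1.69 and 1.31 FPKM (-1.28 ± 0.14) and FANCI by 0.67 ± 0.09; the riser was MND1, a factor of strand exchange in meiosis, at 3.45, 2.76 and 2.51 and 5.62, 5.01 and 6.62 FPKM (0.94 ± 0.15). At 40 against 20 mM 16 of the 29 were lower and 0 higher. Of 21 genes of deoxynucleotide and pyrimidine synthesis 12 fell and 3 rose (5 rose without replicate 3 of 40 mM), with DHODH, the pyrimidine enzyme of the inner mitochondrial membrane that passes electrons to ubiquinone, at 2.62, 2.75 and 2.56 FPKM without and 1.76, 1.47 and 1.43 FPKM with metformin (-0.80 ± 0.09). Of 16 purine synthesis genes 15 were tested, 10 fell and 1 rose; PRPS2 fell by 0.53 ± 0.07, ADSS2 by 0.47 ± 0.04 and ADSL by 0.45 ± 0.05.

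Histone transcripts of S phase did not give a stable result. Of 60 listed genes 10 were tested, and 3 fell, namely H4C11 (-0.66 ± 0.22), H4C9 (-0.47 ± 0.18) and H2BC12 (-0.43 ± 0.16). Without replicate 3 of 40 mM these were at -0.56, -0.39 and -0.25, none was called, and 2 other members rose; without replicate 1 or 2 of 0 mM 0 fell. These transcripts mostly lack poly(A) tails, and the libraries were made from polyadenylated RNA.

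**Figure D2:**
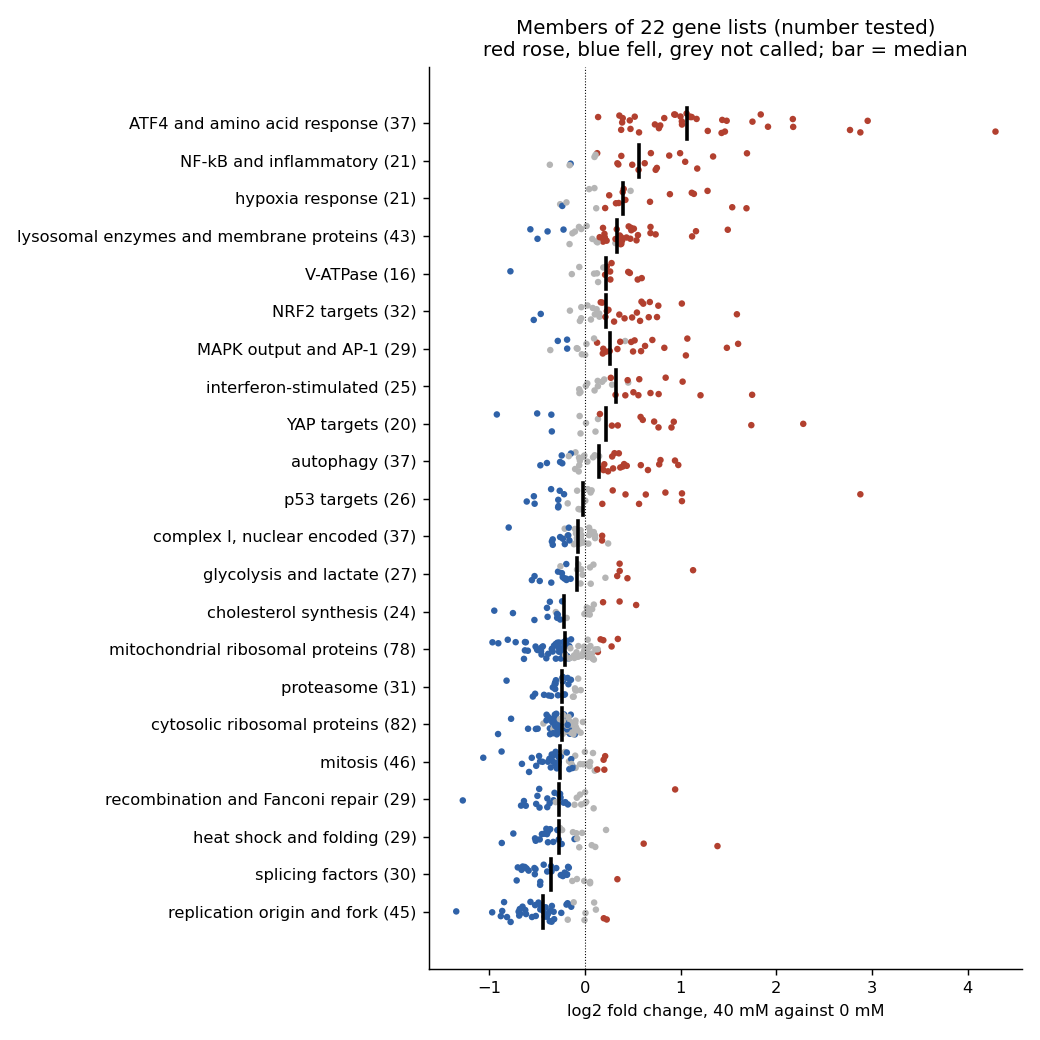
Log2 fold change at 40 mM against 0 mM of the tested members of 22 gene lists, 1 point per gene, red where it rose, blue where it fell and grey where it was not called; bars are medians and the number tested follows each name. The ATF4 list lies wholly to the right (median 1.06) and the replication list mostly to the left (median -0.43), and vertical scatter within a row has no meaning.

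Highly expressed genes fell more often than others. Among 324 genes with a mean of at least 100 FPKM, 189 fell (58.3%) and 36 rose (11.1%), with a median of -0.21, while among 2208 genes between 1 and 2 FPKM 429 fell (19.4%) and 554 rose (25.1%), with a median of 0.04. Without replicate 3 of 40 mM 203 of the 324 fell and 49 rose. With libraries scaled to their total count, which moves the median of all tested genes by 0.05, 162 fell and 48 rose. Glycolytic GAPDH went from 2678, 2772 and 2669 to 1816, 1902 and 2053 FPKM (-0.53 ± 0.04), and VIM, the intermediate filament vimentin, from 453, 479.5 and 479.7 to 259, 254 and 278 FPKM (-0.87 ± 0.04, adjusted p = 8.2e-08). The ferritin light chain FTL, among the 36 that rose, is given with the iron genes.

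**Figure D3:**
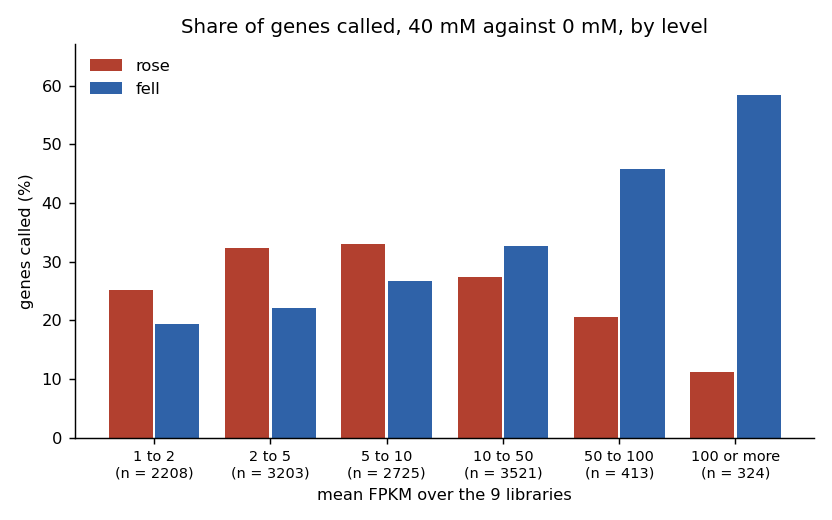
Share of tested genes that rose (red) or fell (blue) at 40 mM against 0 mM, in 6 ranges of mean FPKM over the 9 libraries; n is the number of genes in each range. The share that fell grows from 19.4% in the lowest range to 58.3% in the highest.

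The direction also varied with length. When the 10597 tested protein-coding genes were split into 5 bins of near equal size by the length that their counts and FPKM imply, 23.4% rose and 31.1% fell in the shortest bin, and 38.9% rose and 23.9% fell in the longest. The shortest bin also had the higher median level at 0 mM, 12.1 FPKM against 4.52 FPKM, and the part of level in this difference was not tested.

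Genes of the translation machinery were among the abundant genes that fell. Of 84 cytosolic ribosomal protein genes 82 were tested, 56 fell and 0 rose, with a median of -0.24; without replicate 3 of 40 mM 57 fell and 0 rose, with a median of -0.17. With total count scaling 43 fell. Their share of all counts was 6.05% to 6.34% at 0 mM and 5.04% to 5.76% at 40 mM, lowest in replicate 3. RPL10 was at 203, 206 and 189 FPKM untreated and at 142, 150.1 and 114 FPKM treated (-0.59 ± 0.08). RPL39L, a paralog found in few tissues, fell by 0.91 ± 0.17, and RPL22L1 by 0.77 ± 0.16 (-0.56 without replicate 3 of 40 mM). Ribosomal protein genes have many processed copies in the genome, so their levels are less certain. At 40 against 20 mM 44 of the 82 fell and 0 rose.

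Of 40 genes of ribosome biogenesis 22 fell and 1 rose (3 without replicate 3 of 40 mM). NOP56, a core protein of the particles that methylate ribosomal RNA, fell from 65.4, 67.7 and 65.3 to 35.1, 37.3 and 32.7 FPKM (-0.95 ± 0.05, adjusted p = 1.4e-07), UTP4 by 0.74 ± 0.04 and BOP1 by 0.73 ± 0.04. The single gene that rose was POLR1E, a subunit of RNA polymerase I (0.15 ± 0.05), and its call was lost when replicate 1 or 2 of either dose was left out. Of 31 splicing factors 30 were tested, 24 fell and 1 rose, with a median of -0.35. HNRNPH1 was at 74.2, 71.8 and 73.6 FPKM at 0 mM and at 46.4, 45.3 and 45.4 FPKM at 40 mM (-0.71 ± 0.04); HNRNPDL fell by 0.70 ± 0.04 and HNRNPD by 0.66 ± 0.04. The member that rose was HNRNPA3 (0.34 ± 0.04).

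Of 26 tested host genes of small nucleolar RNAs 8 fell and 3 rose, against 27.4% and 28.8% of all tested genes (7 and 5 without replicate 3 of 40 mM). SNHG21 was at 0.59 ± 0.11, SNHG25 at -0.58 ± 0.21 (-0.38, adjusted p = 0.11, without replicate 3 of 40 mM, and not called without any other of the 6 libraries but replicate 2 of 40 mM) and SNHG8 at -0.52 ± 0.15 (-0.33 without that library).

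Genes of protein breakdown and folding fell more often than they rose. None of 31 proteasome genes rose and 22 fell (21 without replicate 3 of 40 mM), with a median of -0.23. PSMD7, a lid subunit, went from 63.2, 68.3 and 65 to 37.3, 39.8 and 37 FPKM (-0.82 ± 0.05), PSMD4 fell by 0.54 ± 0.06 and PSMD13 by 0.52 ± 0.07. Of 29 heat shock and folding genes 17 fell and 2 rose, the same without replicate 3. HSP90AB1, the constitutive HSP90, was at 971, 965 and 962 FPKM untreated and at 552, 548 and 526 FPKM treated (-0.87 ± 0.03, adjusted p = 2.7e-08), and HSPA8 fell by 0.75 ± 0.07. HSPB8, a small chaperone that hands misfolded proteins to autophagy, rose from 2.34, 2.34 and 2.45 to 6.95, 5.69 and 6.43 FPKM (1.39 ± 0.11), and its level at 20 mM was 3.19, 2.4 and 3.06 FPKM.

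In the endoplasmic reticulum, 14 of 29 tested genes of the unfolded protein response fell and 9 rose (12 and 10 without replicate 3 of 40 mM). HSP90B1, the reticulum's HSP90, fell from 189.8, 190.2 and 193 to 114, 118 and 109 FPKM (-0.78 ± 0.04). XBP1, a transcription factor of that response, rose by 0.70 ± 0.05, and HERPUD1, which serves breakdown of reticulum proteins and is also in the ATF4 list, by 0.79 ± 0.06.

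Transcripts of the mitochondrial genome moved by class. Both rRNA genes rose: MT-RNR1 from 430.1, 565 and 626 to 1348, 1448 and 1714 FPKM (1.44 ± 0.12; 1.34 without replicate 3 of 40 mM) and MT-RNR2 by 1.04 ± 0.13. Of the 22 tRNA genes 21 fell and 0 rose, with a median of -0.78; without replicate 3 20 fell, with a median of -1.03. MT-TF, for phenylalanine, was at 55.8, 76.2 and 102 FPKM at 0 mM and 11.9, 12.5 and 18 FPKM at 40 mM (-2.49 ± 0.30), MT-TV fell by 2.18 ± 0.30 and MT-TT by 1.86 ± 0.22. These families were looked at after their values were seen. rRNAs and tRNAs of mitochondria have short tails or none and nuclear copies share their reads, so a level from polyadenylated RNA is uncertain.

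The 13 mitochondrially encoded mRNAs depended on the library. With all libraries 1 rose and 3 fell, with a median of -0.11; without replicate 3 of 40 mM 1 rose and 8 fell, with a median of -0.30; when replicate 3 of 0 mM was left out 0 fell, and when replicate 1 of 40 mM was, 4 rose. MT-ND1, a complex I subunit, rose from 1073, 1282 and 1544 to 1629, 1707 and 2406 FPKM, highest in replicate 3 (0.53 ± 0.15; 0.32 without that library, adjusted p = 0.02). MT-ND3 fell by 0.30 ± 0.09; leaving out replicate 3 of 0 mM ended its call (-0.25, adjusted p = 0.056). MT-ND6 was called at -0.26 ± 0.10 and not without replicate 1 or 3 of 0 mM (-0.24 and -0.21) or replicate 1 or 2 of 40 mM (-0.15 and -0.27). The share of counts from the mitochondrial genome was 2.76% to 3.53% at 0 mM and 3.01%, 3.27% and 4.36% at 40 mM, so that replicate 3 alone lay above the untreated range.

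**Figure D4:**
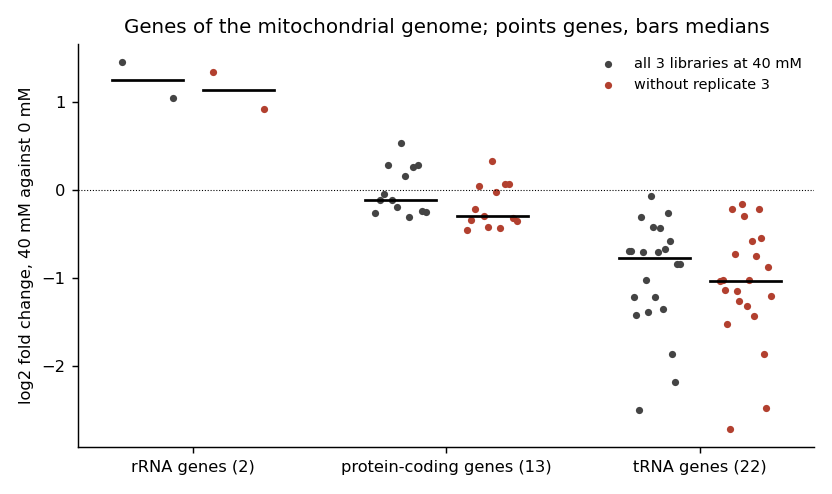
Log2 fold change at 40 mM against 0 mM of the genes of the mitochondrial genome by class, 1 point per gene, with all libraries (dark) and without replicate 3 of 40 mM (red); bars are medians. The rRNA genes lie above 0 and the tRNA genes below it (median -0.78) in both fits, and the mRNA median shifts from -0.11 to -0.30.

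Nuclear genes of complex I, the enzyme that metformin inhibits, were called less often than all tested genes, of which 56.2% were called. The share that fell was near the 27.4% of all tested genes, and fewer rose than the 28.8% of all tested genes. Of 37 members 10 fell and 2 rose, with a median of -0.08 (9 fell and 4 rose without replicate 3 of 40 mM, 0 rose without replicate 2 of 40 mM, and 7 fell and 5 rose with total count scaling). NDUFV3 fell from 3.72, 3.49 and 3.42 to 1.92, 2 and 2.35 FPKM (-0.80 ± 0.09), and NDUFV1, which binds NADH, by 0.34 ± 0.05. NDUFA7 was called at -0.34 ± 0.10, but lost that call when replicate 1 of 0 mM was left out (-0.28, adjusted p = 0.06), and overlaps RPS28. Of 34 nuclear genes of complexes III to V 15 fell and 0 rose (12 and 1 without replicate 3 of 40 mM, 10 and 2 with total count scaling), led by ATP synthase genes: ATP5PD (-0.57 ± 0.06), ATP5F1A (-0.40 ± 0.07) and ATP5F1C (-0.34 ± 0.05).

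Genes of mitochondrial translation mostly fell. Of 78 mitochondrial ribosomal protein genes 43 fell and 5 rose, with a median of -0.21; without replicate 3 of 40 mM 42 fell and 9 rose, and without replicate 1 or 2 of 0 mM or replicate 2 of 40 mM 3 rose. MRPS18B went from 42.2, 41.9 and 40.0 to 22.1, 23.9 and 21.8 FPKM (-0.90 ± 0.05) and MRPL12, which also binds the mitochondrial RNA polymerase, from 104, 102 and 100.2 to 59.6, 60.9 and 58.7 FPKM (-0.81 ± 0.04, adjusted p = 8.6e-08). MRPL53 had the largest fitted fall (-0.97 ± 0.35) but varied within groups, and its call was lost on leaving out any of the 6 libraries other than replicate 1 of 40 mM (adjusted p = 0.066 with replicate 3 of 40 mM left out). Of 30 mitochondrial tRNA synthetases and expression factors 19 fell and 3 rose (18 and 5 without replicate 3 of 40 mM; 12 fell with total count scaling), including SARS2 (-0.73 ± 0.08), which overlaps MRPS12, TFB1M, a methylase of mitochondrial rRNA (-0.72 ± 0.07), and PARS2 (-0.70 ± 0.13). TFAM, which packs and transcribes mitochondrial DNA, was at 15.7, 15.1 and 16.2 FPKM at 0 mM and 16.9, 16 and 13.8 FPKM at 40 mM and was not called (-0.04 ± 0.06, adjusted p = 0.6).

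Genes of central carbon metabolism fell more often than they rose. In the TCA cycle 14 of 26 tested genes fell and 3 rose, against 27.4% and 28.8% of all tested genes. IDH2, mitochondrial isocitrate dehydrogenase, was at 4.38, 4.62 and 4.36 FPKM at 0 mM, at 4.11, 4.55 and 4.19 FPKM at 20 mM and at 2.27, 2.27 and 2.78 FPKM at 40 mM; only the higher dose was called (20 against 0 mM -0.06 ± 0.10, adjusted p = 0.7; 40 against 0 mM -0.90 ± 0.10; 40 against 20 mM -0.84 ± 0.10, adjusted p = 0.0003). OGDH, of the oxoglutarate dehydrogenase complex, fell by 0.83 ± 0.06 and SUCLG2 by 0.55 ± 0.04. In glycolysis 12 of 27 fell and 5 rose, beside the same 27.4% and 28.8% (7 rose without replicate 3 of 40 mM). LDHB fell from 297, 302 and 297 to 217, 229 and 179.8 FPKM (-0.55 ± 0.07). PDK4, a kinase that shuts the pyruvate dehydrogenase complex, rose from 2.24, 2.54 and 2.67 to 5.14, 5.52 and 6.07 FPKM (1.13 ± 0.08, adjusted p = 1.6e-06). HK2, hexokinase 2, was not called (-0.02 ± 0.05, adjusted p = 0.68).

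Lysosomal genes rose. Of 45 genes of lysosomal enzymes and membrane proteins 43 were tested, 29 rose and 4 fell, with a median of 0.33; without replicate 3 of 40 mM 29 rose and 5 fell. CTSK, cathepsin K, was at 3.27, 3.47 and 3.5 FPKM untreated and 8.03, 9.9 and 11.6 FPKM treated (1.49 ± 0.15). GPNMB, a glycoprotein of lysosomes and melanosomes (ENSG00000136235, chromosome 7, 23235967 to 23274729, plus strand), went from 34.5, 32.5 and 32.6 to 78.5, 76 and 73.6 FPKM (1.16 ± 0.05, adjusted p = 2.9e-08), and TPP1, a peptidase, from 7.41, 8.12 and 7.9 to 16.2, 16.2 and 19.7 FPKM (1.12 ± 0.07). CD68, a lysosomal glycoprotein of macrophages that was fixed as a leukocyte marker, went from 4.38, 3.68 and 3.64 to 15.2, 15 and 22.1 FPKM (2.12 ± 0.15). Of the other leukocyte markers, PTPRC was at 0 in all 3 libraries at 40 mM and LYZ averaged 4.34 FPKM there. CD68 overlaps another gene model, so its level is uncertain.

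The proton pump that acidifies lysosomes, the V-ATPase, had 9 of 16 subunits rising and 1 falling (10 and 1 without replicate 3 of 40 mM; 8 and 2 when replicate 2 of that dose was left out). ATP6V0A1 rose by 0.59 ± 0.06 and ATP6V1D by 0.55 ± 0.04. The subunit that fell was ATP6V0A2, an isoform of the membrane arm, from 1.76, 1.52 and 1.65 to 0.994, 1.01 and 0.938 FPKM (-0.78 ± 0.07). Of 37 tested autophagy genes 18 rose and 6 fell, against 28.8% and 27.4% of all tested genes. Without replicate 3 of 0 mM, or with total count scaling, 3 fell. GABARAPL1, a ubiquitin-like protein of the autophagosome membrane, went from 6.9, 7.84 and 7.89 to 15.2, 15 and 15.4 FPKM (0.98 ± 0.06), the cargo receptor OPTN rose by 0.94 ± 0.07 and WIPI1, which marks forming autophagosomes, by 0.79 ± 0.10.

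The windows of CTSA and GAA, both enzymes of the lysosome, are shown because they had the largest rise and the largest fall among lysosomal genes whose windows hold the CLEAR element TCACGTGA, a palindrome bound by TFEB and its relatives. CTSA, cathepsin A, rose by 0.54 ± 0.06, and GAA, acid alpha-glucosidase, fell by 0.49 ± 0.10, from 4.79, 4.43 and 4.85 to 3.09, 3.08 and 4.06 FPKM. The windows are chr20:45891085-45891384, plus strand, for CTSA and chr17:80101331-80101630, plus strand, for GAA.
CTSA: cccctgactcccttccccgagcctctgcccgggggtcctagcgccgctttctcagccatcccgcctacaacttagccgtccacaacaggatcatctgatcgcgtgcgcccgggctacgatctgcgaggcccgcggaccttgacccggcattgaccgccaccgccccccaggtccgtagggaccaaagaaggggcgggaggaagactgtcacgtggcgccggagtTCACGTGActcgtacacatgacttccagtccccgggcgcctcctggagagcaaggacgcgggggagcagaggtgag
GAA: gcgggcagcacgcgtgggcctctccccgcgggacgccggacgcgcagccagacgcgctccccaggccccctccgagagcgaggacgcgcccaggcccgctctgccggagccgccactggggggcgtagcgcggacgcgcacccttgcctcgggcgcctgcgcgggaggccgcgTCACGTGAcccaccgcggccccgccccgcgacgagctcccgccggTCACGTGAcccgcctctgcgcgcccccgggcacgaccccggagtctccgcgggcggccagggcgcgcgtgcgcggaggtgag
CTSA holds 1 match and GAA 2, in capitals. The element was found in 5 of 27 members with a window, of which 3 rose and 1 fell, in 2.49% of the tested genes with a window and in 0.98% of all windows.

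Of 31 genes for AMPK and other brakes on the growth kinase mTORC1 26 were tested. Of these 12 rose and 8 fell, against 28.8% and 27.4% of all tested genes (5 fell without replicate 2 of 0 mM or replicate 1 of 40 mM). SESN2, a leucine sensor that is also an ATF4 target, rose from 5.32, 5.33 and 4.85 to 11, 10.3 and 10.7 FPKM (1.01 ± 0.07). FNIP1, the partner of folliculin, rose by 0.89 ± 0.06, and PRKAB2, a regulatory subunit of AMPK, by 0.85 ± 0.07. SESN2 at 40 mM was below its level at 20 mM (-0.36 ± 0.07, adjusted p = 0.0043), while FNIP1 was above it (0.41 ± 0.06).

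Genes of ferroptosis, which the study's title names, did not move in 1 direction. Of 28 genes that protect against it 26 were tested, 12 rose and 5 fell, with a median of 0.07; of 28 that promote it 21 were tested, 5 rose and 5 fell, with a median of -0.04. Over all tested genes 28.8% rose and 27.4% fell, and the promoting list lay near those shares. Without replicate 3 of 40 mM the counts were 12 and 4, and 7 and 5. GPX4, the peroxidase that reduces lipid peroxides, was at 27.8, 29.7 and 29.6 FPKM at 0 mM and 29.2, 28.7 and 31.6 FPKM at 40 mM, overlapping ranges (0.01 ± 0.05, adjusted p = 0.93). AIFM2, which encodes the ubiquinone reductase FSP1, was at 6.67, 6.68 and 6.2 and 6.96, 6.55 and 6.11 FPKM (-0.03 ± 0.07, adjusted p = 0.75). ACSL4 activates long unsaturated fatty acids for membrane lipids and so favours ferroptosis; it went from 8.93, 8.94 and 10.1 to 4.76, 5.18 and 5.47 FPKM (-0.89 ± 0.07, adjusted p = 2e-06); it lay at 7.21, 7.71 and 8.01 FPKM at 20 mM, and the step from 20 to 40 mM was -0.60 ± 0.07. Of the protecting genes SLC7A11, given above, had the largest rise (1.01), and FTL, given with the iron genes, rose by 0.87. DHODH, also a protecting gene, fell (-0.80), and CHAC1, of the promoting list, rose (2.18), as given above.

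Of 32 tested NRF2 targets, genes of the antioxidant response, 19 rose and 2 fell (22 and 2 without replicate 3 of 40 mM). HMOX1, heme oxygenase 1, was at 29.4, 22.5 and 18.8 FPKM at 0 mM and at 116, 58.4 and 43 FPKM at 40 mM (1.59 ± 0.33, adjusted p = 0.0017; 1.07 without replicate 1 of 40 mM and 1.85 without replicate 3). TRIM16L rose by 0.77 ± 0.13. NFE2L2, which encodes NRF2, rose by 0.36 ± 0.06. TXNIP, the thioredoxin inhibitor, was at 1.05, 1.27 and 1.35 and 1.44, 1.73 and 1.38 FPKM (0.27 ± 0.15, adjusted p = 0.15).

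Of 30 tested genes of iron and heme 11 rose and 8 fell, against 28.8% and 27.4% of all tested genes. FTL, the ferritin light chain, was at 1604, 1518 and 1410.3 FPKM without and 2902, 2636 and 2933 FPKM with metformin (0.87 ± 0.06), and FTH1, the heavy chain, rose by 0.65 ± 0.07; both have processed copies. TFRC, the transferrin receptor, was not called (-0.04 ± 0.07, adjusted p = 0.59). UROS, an enzyme of heme synthesis, fell from 4.01, 4.32 and 4.31 to 2.37, 2.47 and 2.39 FPKM (-0.84 ± 0.05, adjusted p = 5.4e-07). Among 15 tested metallothioneins and zinc carriers 7 rose and 5 fell, against the same 28.8% and 27.4%. MT1X, a metal-binding protein, rose by 1.44 ± 0.20, and the zinc carriers SLC30A6 and SLC39A10 fell by 0.81 ± 0.06 and 0.72 ± 0.10.

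Of 24 tested cholesterol synthesis genes 11 fell and 3 rose, with a median of -0.21 (-0.12 without replicate 3 of 40 mM), and 7 fell without replicate 1 of 0 mM. PMVK, phosphomevalonate kinase, went from 26, 24.6 and 24.4 to 13.8, 14.8 and 11.2 FPKM (-0.95 ± 0.10), MVD fell by 0.75 ± 0.08 and TM7SF2 rose by 0.54 ± 0.15. In fatty acid synthesis 7 of 21 fell and 6 rose, against 27.4% and 28.8% of all tested genes; FASN, fatty acid synthase, was at 49, 52.3 and 57.1 FPKM at 0 mM and 30.0, 28.9 and 34 FPKM at 40 mM (-0.80 ± 0.07), and the desaturase FADS3 rose by 0.52 ± 0.06.

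Most of the tested NF-kB and inflammatory genes rose. Of 30 listed genes 21 passed the level minimum, 16 rose and 1 fell, with a median of 0.56 (0.61 without replicate 3 of 40 mM, when 16 rose and 0 fell). That minimum counts treated libraries too, so weakly expressed genes passed it more easily if they rose. Of genes under it, CXCL8, IL1B, CCL2 and IL6 were not called in a fit with no filter, while PTGS2 rose. IL24, a cytokine of the IL-10 family first found in melanoma cells, was at 71.5, 65.8 and 57.8 FPKM untreated and 190.2, 179.8 and 136 FPKM treated, lowest in replicate 3 (1.34 ± 0.11, adjusted p = 3.4e-06). IL1A went from 0.61, 0.579 and 0.792 to 1.76, 2.16 and 2.65 FPKM (1.69 ± 0.20) and CSF2, which encodes GM-CSF, rose by 1.17 ± 0.25. IL1A was under 1 FPKM in all untreated libraries and passed the level minimum only through treated ones. NFKBIB, an inhibitor of NF-kB, was called lower (-0.15 ± 0.05, adjusted p = 0.035), but not with total count scaling, with the 6 libraries alone, or without replicate 1 or 2 of 0 mM or replicate 2 or 3 of 40 mM (adjusted p up to 0.15). TNFAIP3, a deubiquitinase that restrains NF-kB, rose by 0.75 ± 0.15; its window, chr6:137867009-137867308, plus strand, is shown as the list's largest rise with a kB site, the consensus bound by NF-kB, searched for on either strand.
TNFAIP3: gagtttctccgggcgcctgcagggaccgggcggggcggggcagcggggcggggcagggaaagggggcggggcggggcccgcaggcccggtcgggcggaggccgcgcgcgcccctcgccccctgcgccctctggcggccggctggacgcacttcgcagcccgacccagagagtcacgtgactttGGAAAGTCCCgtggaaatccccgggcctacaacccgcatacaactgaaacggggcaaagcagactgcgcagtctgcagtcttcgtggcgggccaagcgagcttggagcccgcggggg
The match reads GGAAAGTCCC. The motif was found in 8 of 17 members with a window, 6 of which rose and 1 fell, in 0.743% of the tested genes with a window and in 0.558% of all windows.

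Of 25 tested interferon-stimulated genes 13 rose and 0 fell (15 and 0 without replicate 3 of 40 mM). IFIT2, which binds foreign RNA, rose from 0.761, 0.587 and 0.689 to 2.22, 2.37 and 2.46 FPKM (1.75 ± 0.14), BST2, which tethers budding viruses, by 1.21 ± 0.21 and the exonuclease ISG20 by 1.02 ± 0.08. IFIT2 was under 1 FPKM in all untreated libraries and passed the level minimum only through treated ones. Of 13 tested genes of HLA class I presentation 7 rose and 3 fell, against 28.8% and 27.4% of all tested genes. ERAP2, a peptidase that trims peptides, rose by 1.55 ± 0.21, TAPBP by 0.93 ± 0.10 and the peptide transporter TAP1 by 0.55 ± 0.05.

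Of 29 tested genes of MAPK output and the AP-1 factors 18 rose and 3 fell (18 and 4 without replicate 3 of 40 mM; 0 fell without replicate 3 of 0 mM, and 1 with total count scaling). JUN went from 3.51, 2.9 and 2.79 to 11.2, 9.33 and 8.05 FPKM (1.60 ± 0.17), and its level of 4.68, 4.37 and 3.04 FPKM at 20 mM was nearer to that of untreated cells. DUSP5, a phosphatase of ERK, went from 8.79, 7.63 and 6.58 to 26.1, 21.5 and 18.3 FPKM (1.48 ± 0.14) and FOSL2, a partner of JUN, rose by 1.07 ± 0.10. Of 20 tested targets of YAP, a factor that responds to cell shape and contact, 11 rose and 4 fell (2 without replicate 1 of 0 mM). ANKRD1 rose from 1.41, 1.18 and 0.72 to 7.01, 5.13 and 4.39 FPKM (2.28 ± 0.24), the matrix protein CCN1 from 12.6, 11.9 and 11.2 to 44.1, 38.7 and 39 FPKM (1.74 ± 0.07, adjusted p = 2.4e-08) and CCN2 by 0.93 ± 0.12.

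Genes of melanoma cell identity gave both directions. Of 22 melanocyte lineage genes 10 were tested, 2 rose and 3 fell (5 fell without replicate 1 of 0 mM). Over all tested genes 28.8% rose and 27.4% fell, and the list lay near those shares. TFAP2B, a transcription factor of the neural crest (ENSG00000008196, chromosome 6, 50818723 to 50847619, plus strand), had the largest fall of any gene in a list: 6.26, 7.76 and 9.87 FPKM at 0 mM and 0.903, 1.18 and 1.71 FPKM at 40 mM (-2.68 ± 0.22, adjusted p = 2.9e-06; -2.96 without replicate 3 of 40 mM). S100B, a calcium-binding protein used as a melanoma marker, fell by 0.80 ± 0.15, and ERBB3, a receptor of neuregulin, by 0.64 ± 0.10. MITF, the master factor of the lineage, was not called (-0.01 ± 0.10, adjusted p = 0.93). SOX10, which acts upstream of it, was at 93.7, 105 and 114 FPKM at 0 mM and 70.7, 78 and 108 FPKM at 40 mM; replicate 3 at 40 mM lay within the untreated range and the other treated libraries below it, and the gene was called without that library (-0.32 ± 0.13, adjusted p = 0.057; -0.52, adjusted p = 7.1e-05).

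Of 19 tested genes of dedifferentiated or invasive melanoma 7 fell and 6 rose, against 27.4% and 28.8% of all tested genes. SOX2 fell from 3.57, 4.16 and 4.6 to 1.04, 1.8 and 2.01 FPKM (-1.38 ± 0.22), while INHBA, a subunit of activin, rose by 1.26 ± 0.07 and TGFBI, a matrix protein induced by TGF-beta, by 0.98 ± 0.04. Among 13 tested integrins 7 rose and 5 fell, against 28.8% and 27.4% of all tested genes. ITGB3, part of the vitronectin receptor, was at 20.4, 23.7 and 26.5 FPKM untreated, 18.3, 20.9 and 22.4 FPKM at 20 mM and 8.87, 10.2 and 10.7 FPKM at 40 mM (-1.28 ± 0.10); ITGB5 rose by 0.80 ± 0.04 and ITGA2 by 0.54 ± 0.05. Of 30 tested genes of matrix and proteases 15 rose and 6 fell. MMP3, stromelysin 1, rose from 0.201, 0.158 and 0.159 to 4.69, 2.98 and 2.02 FPKM (4.15 ± 0.31), MMP1, interstitial collagenase, by 1.53 ± 0.16, and TIMP3, an inhibitor of such proteases, fell from 235, 239 and 240.2 to 112, 118 and 124 FPKM (-1.05 ± 0.04, adjusted p = 2.8e-08). MMP3 was under 1 FPKM in all untreated libraries and passed the level minimum only through treated ones.

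Of 19 tested microtubule genes 10 fell and 7 rose. Tubulin TUBB6 fell by 0.89 ± 0.06. MAP1B, a protein that stabilises microtubules in neurons (ENSG00000131711, chromosome 5, 72107234 to 72209565, plus strand), went from 3.22, 3.16 and 3.53 to 18.4, 15.9 and 18.1 FPKM (2.37 ± 0.07, adjusted p = 1.3e-08), and its relative MAP1A rose by 0.88 ± 0.12.

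Of 21 tested hypoxia response genes 14 rose and 1 fell (15 and 1 without replicate 3 of 40 mM, 2 fell without replicate 1 or 2 of 0 mM). ANGPTL4, a secreted inhibitor of lipoprotein lipase, went from 5.74, 7.38 and 6.76 to 21.6, 17.9 and 19.7 FPKM (1.54 ± 0.09) and NDRG1 rose by 1.28 ± 0.07. BHLHE41, a repressor counted in both the hypoxia and the clock lists, rose by 1.69 ± 0.13. Of 13 tested circadian clock genes 6 rose and 0 fell (7 and 1 without replicate 3 of 40 mM). NFIL3 rose from 3.98, 4.18 and 3.6 to 9.93, 9.11 and 8.58 FPKM (1.2 ± 0.08), and BHLHE40 by 1.14 ± 0.09.

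Of 27 tested genes of insulin and IGF signalling 15 rose and 4 fell, against 28.8% and 27.4% of all tested genes. GRB10, an adaptor that dampens the insulin receptor, was at 2.01, 2.13 and 2.36 FPKM at 0 mM and at 6.56, 6.57 and 6.56 FPKM at 40 mM (1.56 ± 0.06, adjusted p = 2.8e-08). IGFBP3, which binds IGF, rose by 0.90 ± 0.07, and the transcription factor FOXO3 by 0.75 ± 0.09.

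Of 26 tested p53 targets 9 rose and 9 fell, against 28.8% and 27.4% of all tested genes; the largest risers, GDF15 and SESN2, are also in the ATF4 list, and BBC3, which encodes the death protein PUMA, rose from 1.68, 1.52 and 1.49 to 3.67, 3.38 and 2.67 FPKM (1.01 ± 0.13). In the list of the BCL2 family and death receptors 11 of 21 rose and 1 fell (2 without replicate 3 of 0 mM or replicate 1 of 40 mM). PMAIP1, which encodes NOXA, was at 9.34, 8.67 and 8.87 FPKM untreated and 18.9, 18.6 and 15.2 FPKM treated (0.94 ± 0.08), and BCL2L11, which encodes BIM, rose by 0.58 ± 0.15. BAD fell by 0.40 ± 0.07.

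**Figure D5:**
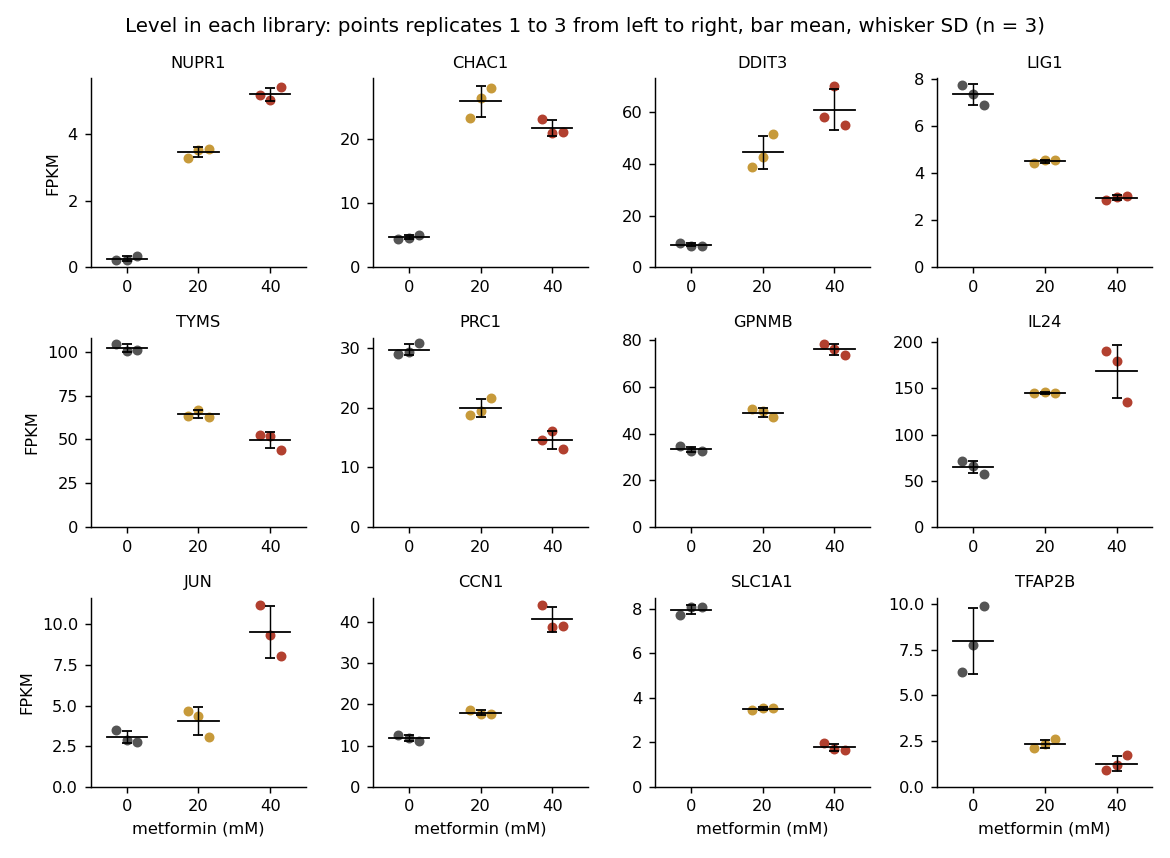
FPKM of 12 genes in each library at 0, 20 and 40 mM metformin; points are replicates 1 to 3 from left to right, bars are means and whiskers SD (n = 3). NUPR1, GPNMB and CCN1 are highest at 40 mM, CHAC1 is no higher at 40 than at 20 mM, and LIG1, TYMS, PRC1, SLC1A1 and TFAP2B are lowest at 40 mM.

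Among called genes whose higher group averaged at least 5 FPKM and whose groups did not overlap, the largest rise was that of AL137800, an unnamed gene model (ENSG00000286966, chromosome 1, 183613537 to 183619335, plus strand), from 0.713, 0.576 and 0.346 to 13.8, 10.3 and 12.6 FPKM (4.43 ± 0.26, adjusted p = 3.2e-07). It was followed by NUPR1 and by BEST1, a chloride channel gene, at 1.5, 0.331 and 0.488 FPKM and 17.3, 15.3 and 6.53 FPKM (4.03 ± 0.49). BEST1 overlaps FTH1 on the opposite strand, and its level is uncertain. AL137800, like NUPR1, was under 1 FPKM in all untreated libraries and passed the level minimum only through treated ones. RN7SK, a regulator of transcription elongation that lacks a poly(A) tail and shares reads with its pseudogenes, was called at 3.48 ± 0.43, and the gene model AC009093 at 3.30 ± 0.20. S100P, a calcium-binding protein, went from 2.81, 2.18 and 1.54 to 13.7, 12.7 and 7.9 FPKM (2.36 ± 0.30). GDF15, DDIT3, MAP1B, ANKRD1, CHAC1 and ATF3 complete the 12.

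By the same rule the largest falls that are not given above were those of the gene model AC025470, from 9.98 ± 0.935 to 2.07 ± 0.219 FPKM (mean ± SD, n = 3; log2 fold change -2.30 ± 0.10), FLRT3, an adhesion protein of FGF signalling, from 9.48, 8.99 and 9.06 to 2.38, 2.72 and 3.02 FPKM (-1.79 ± 0.08), DPYSL5, a protein of growing axons, from 7.71, 7.94 and 7.39 to 2.36, 2.47 and 2.58 FPKM (-1.67 ± 0.06, adjusted p = 1.9e-08), the neural crest factor SOX5 (-1.65 ± 0.12) and FAM111B, a protease (-1.63 ± 0.08). All of these groups lay apart. AP002990 (-1.81 ± 0.43) overlaps EEF1G and TUT1 on its own strand and ran from 7.00 to 35.1 FPKM at 40 mM, and PTGES3L-AARSD1 (-2.34 ± 0.71) overlaps AARSD1 and lost its call when replicate 3 of 0 mM was left out (-2.09, with adjusted p = 0.0503) and likewise replicate 2 of 40 mM (-2.03, with adjusted p = 0.059); both are uncertain.

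To see what the higher dose added, 40 mM was compared with 20 mM in the same fit. The comparison called 3637 genes (29.3%), 1770 higher (14.3%) and 1867 lower (15.1%) at 40 mM, and 39 (0.315%) and 19 (0.153%) by at least 2-fold; without replicate 3 of 40 mM 4065 were called. Of the 37 ATF4 genes 7 were higher at 40 than at 20 mM and 14 lower, with a median of -0.01. CHAC1 and SLC7A11 were among the lower ones (CHAC1 -0.28 ± 0.07, adjusted p = 0.017), and NUPR1 among the higher (0.56 ± 0.12, adjusted p = 0.006). In the lysosomal list 19 of 43 were higher and 4 lower, in the NF-kB list 10 of 21 and 0, in the MAPK and AP-1 list 11 of 29 and 2, and in the interferon list 9 of 25 and 0.

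Behind RN7SK and the gene model AL137800, given below, the immediate early factors EGR1 and JUN had the largest rises from 20 to 40 mM by the same rule. EGR1 was at 2.34, 3.23 and 2.99 FPKM at 0 mM, at 1.63, 2.08 and 2.08 FPKM at 20 mM and at 4, 4.64 and 6.92 FPKM at 40 mM, highest in replicate 3; the step from 20 to 40 mM was 1.39 ± 0.20 (adjusted p = 0.00078). For JUN that step was 1.21 ± 0.17 (adjusted p = 0.00061), while 20 against 0 mM was not called (0.39 ± 0.17, adjusted p = 0.1). CCN1 rose by 1.14 ± 0.06 over that step and HSPB8 by 1.11 ± 0.11. After AC138811 and CHMP4A, given below, the largest fall was that of ITGB3 (-1.08 ± 0.10, adjusted p = 0.0001). DAP, a regulator of autophagy, fell from 29.8, 31.4 and 33.3 FPKM at 20 mM to 15.3, 16.6 and 18.2 FPKM at 40 mM (-0.95 ± 0.07). NUCKS1, a chromatin protein of DNA repair, went from 56.2, 58.5 and 57.2 to 28.7, 32.2 and 31.8 FPKM (-0.92 ± 0.05, adjusted p = 9.2e-06).

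The rule also named AL137800 (2.29 ± 0.23) and RN7SK (2.81 ± 0.41) as risers over this step, with NDUFC2-KCTD14 (1.21 ± 0.27), a readthrough gene that overlaps NDUFC2, and a gene model, AC068580, whose name several genes share and whose value is not given. It named AC138811 (-2.09 ± 0.43), which overlaps RPS15A and ARL6IP1, and CHMP4A (-1.45 ± 0.44), which overlaps another gene model, as fallers. Reads of NDUFC2-KCTD14, AC138811 and CHMP4A cannot be assigned with certainty, and the groups of each at 0 and 40 mM overlapped.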

How the data were processed

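RNA was captured from total RNA with oligo(dT) beads and made into strand-specific libraries, per the labels' protocols. The authors deposited 1 table with raw counts per gene and FPKM, per the file headers. The submitters' processing notes name StringTie 2.1.6; aligner, genome build, annotation and use of strand: not given in the sources used here. Samples were grouped by the dose in their labels.

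From the deposited counts, genes with a mean of at least 1 FPKM were tested with edgeR 4.0.16 in R 4.3.3 (TMM scaling, quasi-likelihood test, all 9 libraries, dose as a group, Benjamini-Hochberg adjustment over 12394 genes, threshold 0.05); FPKM as deposited was used for levels. The fit was also run on simulated data with few changed genes, which cannot test scaling or error rates where 56.2% of genes are called. Alternatives used DESeq2 1.42.0, limma 3.58.1, other scalings and filters, a replicate block and the omission of each library. Totals of 65738242 to 75629413 counts set the precision.

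Named genes were the 12 largest rises and falls against 0 mM and the 6 against 20 mM (called, at least 5 FPKM in the higher group, no overlap), the 3 called members of each list with the largest change, and a fixed set of ferroptosis, stress and lineage genes; others are said to be chosen after their values were seen. Some genes within these rules are not reported here. The members and lists were chosen with earlier results of these data known.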

Additional observations from a re-analysis of the deposited data

How the results depend on the processing

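The counts of called genes stayed within 1.5 times of 6962 under other scalings, DESeq2 (7239), limma with quality weights (7463), limma on log2(FPKM + 1) (6886), the 6 libraries alone (6420) and an adjusted p under 0.01 (5270). They moved further when the genes tested or the null changed. With a mean of at least 5 FPKM, fewer genes were tested, and 4245 were called, 2168 higher and 2077 lower, with 93 and 45 of at least 2-fold. With no filter 907 and 647 genes were changed by at least 2-fold. With limma on log2(FPKM + 1), whose pseudocount shrinks low genes, 125 and 63 were. With glmTreat against a fold of 1.2, 3077 were called, 1644 higher and 1433 lower. Leaving out 1 library gave 6049 to 7135 calls, 3092 to 3631 higher and 2957 to 3504 lower, and 265 to 286 and 172 to 206 of at least 2-fold. The split of calls depended on scaling: 51.3% were higher with TMM scaling, 59.8% with total count scaling (4179 higher, 2806 lower) and 48.1% with upper quartile scaling (3346 and 3613).

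With the replicate number as a block 7215 genes were called, 3668 higher and 3547 lower, and 3982 between 40 and 20 mM. No label says whether the numbers pair the libraries. Deviations of same-numbered libraries at 0 and 40 mM correlated at 0.19, -0.05 and 0.06 for replicates 1, 2 and 3. Pairs of unlike number lay between -0.17 and 0.12, highest for replicate 2 at 0 mM with replicate 3 at 40 mM. So few and small correlations cannot decide whether the libraries were paired.

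Of the named genes not called with TMM scaling and all libraries, 7 changed sign. With total count scaling AIFM2 was at 0.022, CDKN1A at 0.0016, HK2 at 0.028, MITF at 0.040, TFAM at 0.0092 and TFRC at 0.0066. Leaving out 1 library moved AIFM2 from -0.076 to 0.014, GPX4 from -0.041 to 0.035, HK2 from -0.064 to 0.017, MITF from -0.11 to 0.057, TFAM from -0.10 to 0.032 and TFRC from -0.10 to 0.038. None of the named genes that were called changed sign under the settings tried for them.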

Other observations

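Among the 24724 genes under a mean of 1 FPKM, 943 rose and 715 fell in a fit with no filter. These are far smaller shares than the 28.8% and 27.4% of the genes over that minimum in the main fit. PTGS2, cyclooxygenase 2, often used as a transcript marker of ferroptosis, had 74, 111 and 77 counts at 0 mM and 296, 288 and 164 at 40 mM (log2 fold change 1.49, edgeR adjusted p = 0.0026). HRK, a death protein of the BCL2 family, had 71, 41 and 54 counts at 0 mM and 193, 202 and 137 at 40 mM (1.66, edgeR adjusted p = 0.00071). FGF21, a hormone of fasting and mitochondrial stress, had 0 counts in all 3 untreated libraries and 23, 24 and 23 at 40 mM. IL6 had 0, 25 and 0 counts untreated and 75, 64 and 55 treated, and was not called (edgeR adjusted p = 0.089). Nor were the inflammatory genes CXCL8 (0.46, edgeR adjusted p = 0.27), IL1B (0.62, edgeR adjusted p = 0.73) and CCL2 (0.125, edgeR adjusted p = 0.78).

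The families given next were picked by gene name after their values were seen, and are set beside the 28.8% of all tested genes that rose and the 27.4% that fell. Of 29 tested HOX genes, which pattern the body axis, 17 rose and 0 fell (13 and 1 without replicate 3 of 40 mM). Of 23 tested protocadherins, adhesion proteins of neurons, 13 rose and 1 fell (12 and 1). Of 346 numbered zinc finger genes 90 rose and 78 fell, and of 40 mitochondrial SLC25 carriers 13 rose and 14 fell.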
